A study of Mus musculus with 9 samples.

Results

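Beta cell disallowed genes are genes that most tissues express and that beta cells keep repressed, so that their products do not interfere with glucose-stimulated insulin secretion or with the mature state. They include enzymes and transporters of fuel metabolism, growth and signalling regulators and enzymes of other pathways. Repression is known to involve DNA methylation, other repressive chromatin marks and microRNAs, and the genes are a common measure of beta cell maturity. The 10 genes described here, Smad3, Maf, Lmo4, Zfp36l1, Acot7, Oat, Tgm2, Igfbp4, Arhgdib and Ndrg2, were chosen by symbol from genes known to be repressed in beta cells, and all 10 were found among the 23329 gene symbols of the count table. Of these, 9 passed the filter on low counts and were tested, and Maf, with at most 6 counts in any library, was not. The members were chosen with earlier results of these data known. Their counts beside those of all genes tested are therefore a description.

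Polyadenylated RNA of pancreatic islets from male mice was sequenced in 9 libraries. The 5 mutant libraries carry the genotype label Pdx1A4, which the labels do not explain, and the 4 control libraries the label Pdx1+/-, so the controls are not labelled as wild type. Pdx1 encodes a homeodomain transcription factor of pancreas development and beta cell function. The culture protocol in the labels names RPMI medium with bovine or human serum for islets, without saying which was used here. The age of the mice is not given. Nor do the labels say that each library is a mouse of its own, and the spread behind the p-values may therefore be partly technical.

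Library totals lay between 7186462 and 9163253 counts in mutants and between 6092010 and 7375376 in controls. Pdx1 had 4.18 to 19.9 CPM, the usual depth-scaled unit of counts, in mutants and 23.8 to 36.0 CPM in controls, with a log2 fold change of -1.19 (edgeR adjusted p = 0.0461), which is no check of a label that does not say what was changed. The libraries also differed in the RNA of cell type markers. The 7 islet hormone genes held 7.99%, 0.0691%, 1.21%, 4.70% and 7.27% of counts in mutants 1 to 5, against 17.0% to 21.1% in controls, with mutants 2 and 3 lowest. Of 16 endocrine secretion markers, genes of hormone granules and their release, 0 rose and 4 fell, with summed levels of 172.3 to 11160 CPM in mutants and 19590 to 24860 CPM in controls. The mean log2 CPM of a marker list is called its score below. Of 23 acinar markers 22 rose and 0 fell, and their summed level was 120500 to 281000 CPM in mutants and 21850 to 49030 CPM in controls. Of 15 ductal markers 7 rose and 1 fell, with summed levels of 18500 to 31250 CPM in mutants and 4928 to 13940 CPM in controls. No gene of these 3 lists was at 0 in all libraries. The part of these cells in the results below was not tested, beyond the fits with a marker score given with them, and in bulk RNA a changed share of cells and a changed level per cell cannot be told apart.

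Promoter sequences are shown for 5 members because DNA methylation at CG pairs is one of the known routes of their repression and because these genes differ widely in CG content. The windows run from 250 bases before to 50 bases after the most upstream start in RefSeq (GRCm38.p6, 5′ to 3′ on the gene's strand), with CG pairs in capitals. The first 4 belong to genes that rose in mutants and the last to the member with the lowest fold change.
Lmo4: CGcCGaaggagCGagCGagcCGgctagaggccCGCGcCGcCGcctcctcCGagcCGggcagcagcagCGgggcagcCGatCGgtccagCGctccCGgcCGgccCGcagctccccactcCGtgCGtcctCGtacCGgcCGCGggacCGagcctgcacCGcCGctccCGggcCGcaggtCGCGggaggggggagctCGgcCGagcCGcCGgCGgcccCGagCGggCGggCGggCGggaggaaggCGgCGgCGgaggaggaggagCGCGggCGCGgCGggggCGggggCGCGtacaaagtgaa
Smad3: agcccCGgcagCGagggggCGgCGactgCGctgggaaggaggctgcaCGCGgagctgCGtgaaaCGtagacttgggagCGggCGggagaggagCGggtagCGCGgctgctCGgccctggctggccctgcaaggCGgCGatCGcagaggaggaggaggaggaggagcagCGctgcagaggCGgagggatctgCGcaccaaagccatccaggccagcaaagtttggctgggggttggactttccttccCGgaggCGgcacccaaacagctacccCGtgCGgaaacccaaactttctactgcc
Zfp36l1: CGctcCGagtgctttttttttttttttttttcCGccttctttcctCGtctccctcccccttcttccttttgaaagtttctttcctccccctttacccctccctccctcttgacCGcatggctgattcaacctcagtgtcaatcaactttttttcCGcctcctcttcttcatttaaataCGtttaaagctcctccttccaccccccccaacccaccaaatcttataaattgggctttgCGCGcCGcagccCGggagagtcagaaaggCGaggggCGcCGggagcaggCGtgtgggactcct
Acot7: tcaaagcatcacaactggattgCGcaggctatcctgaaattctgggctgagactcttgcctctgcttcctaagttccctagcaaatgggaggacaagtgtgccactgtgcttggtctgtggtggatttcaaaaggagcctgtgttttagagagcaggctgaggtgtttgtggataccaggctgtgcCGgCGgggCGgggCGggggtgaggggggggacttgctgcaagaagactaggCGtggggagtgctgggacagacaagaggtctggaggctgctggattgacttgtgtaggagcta
Arhgdib: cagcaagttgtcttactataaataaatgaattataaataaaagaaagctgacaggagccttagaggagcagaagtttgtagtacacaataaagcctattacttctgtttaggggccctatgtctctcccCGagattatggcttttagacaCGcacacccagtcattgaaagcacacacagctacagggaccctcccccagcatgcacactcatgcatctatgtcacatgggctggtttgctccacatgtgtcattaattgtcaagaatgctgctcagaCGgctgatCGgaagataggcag
The windows lie at chr3:144205206-144205505 (minus strand) for Lmo4, chr9:63757945-63758244 (minus strand) for Smad3, chr12:80112964-80113263 (minus strand) for Zfp36l1, chr4:152185358-152185657 (plus strand, within the annotated gene) for Acot7 and chr6:136941850-136942149 (minus strand) for Arhgdib. Lmo4 held 52 CG pairs, Smad3 25, Zfp36l1 15, Acot7 6 and Arhgdib 4, beside a median of 21 over the 8894 tested genes with a window in the table. Igfbp4, Oat and Ndrg2 held 27, 22 and 11, and Maf and Tgm2 were not matched. Among the members that rose, the windows of Lmo4 and Acot7 held the most and the fewest CG pairs. They are the 2 of the 8 whose last bases did not match a GENCODE transcript of the gene in full. The Lmo4 window ends at 144205206, just inside the annotated 5′ end of the gene at 144205220. The Acot7 window begins at 152185358, well inside a gene annotated from 152178134, so its count may not be that of the main promoter. The E-box CACGTG, which the circadian activators CLOCK and BMAL1 bind, and the homeodomain core TAATTA were searched on both strands. Neither occurred in any of the 8 windows, while 10.4% and 2.41% of the windows of tested genes held them. The κB consensus, bound by NF-kB, was found in the windows of Arhgdib and Ndrg2 and in 10.2% of those of tested genes. These are matches of letters, and absence of a match is limited to these windows.

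In mutants 6 of the members rose: the signalling factor Smad3, the enzymes Acot7 and Oat, the LIM-only cofactor Lmo4, the RNA-binding protein gene Zfp36l1 and Ndrg2. They had log2 fold changes from 0.67 (Oat) to 2.17 (Smad3), and their mutant and control libraries did not overlap. Tgm2, Igfbp4 and Arhgdib did not pass the test. By edgeR's quasi-likelihood test at an adjusted p under 0.05, 6 of 9 tested members were higher and 0 lower, while 20.6% of all 12402 genes tested were higher and 11.8% lower. Higher genes made up 63.6% of these calls, and 51.8% with RLE scaling. At an unadjusted p under 0.05 edgeR also had 1 lower member, Arhgdib, which DESeq2 and limma-voom each called. In 6 tested members every mutant lay above every control, which held for 18.5% of all genes tested, and in 1 below, which held for 14.7%. The median log2 fold change was 1.57 over the 9 tested members and 0.04 over all genes tested. Without mutants 2 and 3 the higher members were 4, Smad3, Acot7, Lmo4 and Zfp36l1, where 10.8% of all genes tested were higher. With the endocrine score as a covariate 2 members passed, Smad3 and Acot7, where 4.18% of all genes tested were higher. Group explained 48.9% of the variance of that score, so the genotype and the score overlapped in part. Group explained 93.7% of the variance of the acinar score, and with that score edgeR called 0 of 12402 genes, with 409 at an unadjusted p under 0.05, so the genotype and the acinar RNA cannot be told apart. The 2 members among these 409 had signs opposite to those without the score, Igfbp4 at 6.92 and Ndrg2 at -2.48 in log2 units.

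**Figure D1:**
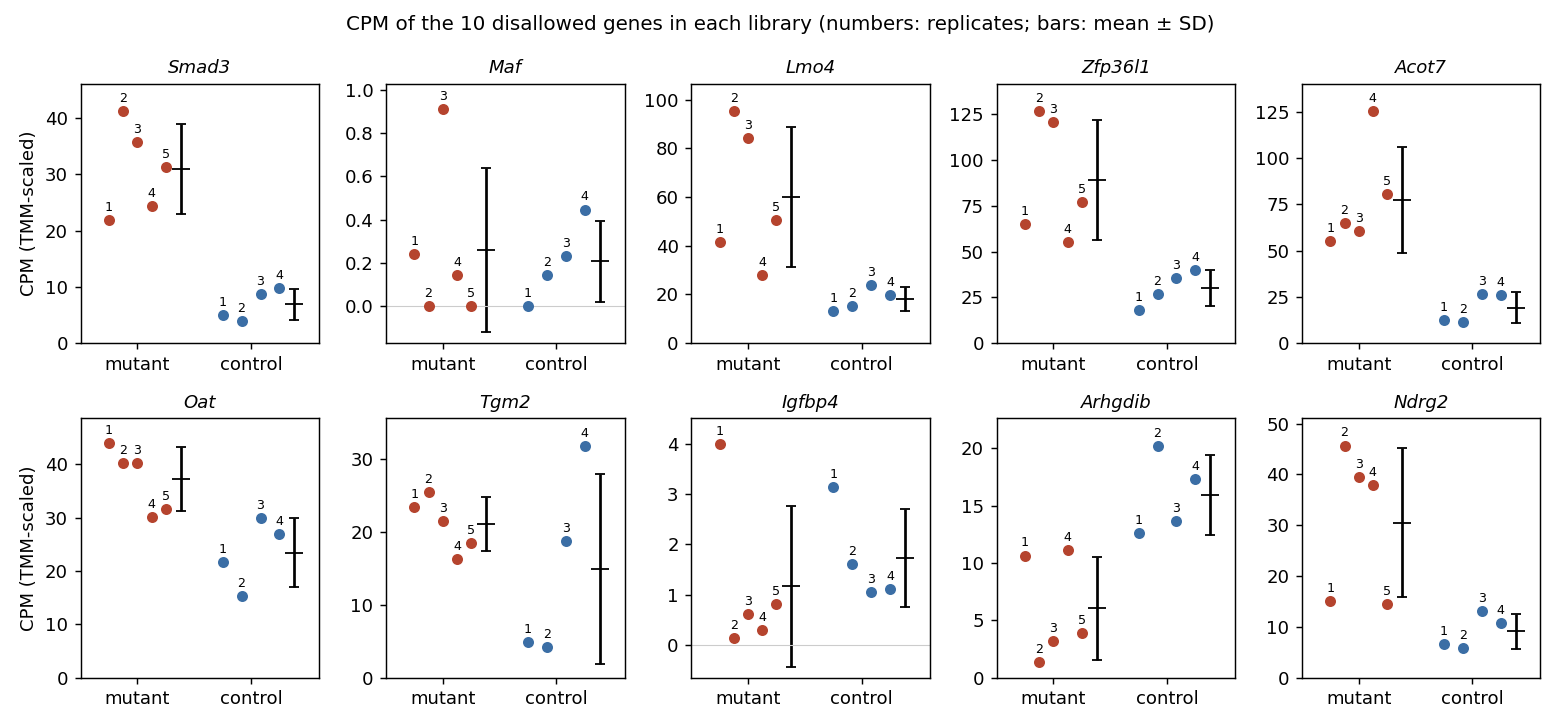
CPM of each of the 10 members (vertical axes, each with its own scale) in the 5 mutant and 4 control libraries, with numbers giving the replicate and bars the mean ± SD. Smad3, Lmo4, Zfp36l1, Acot7, Oat and Ndrg2 lie above every control in all 5 mutants, and Tgm2 splits the controls into a low and a high pair.

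Among the transcriptional regulators, Smad3 (chromosome 9, positions 63646767 to 63757994 of GRCm38), which carries signals of the TGF-β receptor into the nucleus, had 21.8, 41.2, 35.8, 24.3 and 31.3 CPM in mutants 1 to 5. It had 4.92, 3.95, 8.78 and 9.72 CPM in controls 1 to 4. The lowest mutant was far above the highest control, and the means were 30.9 ± 8.03 CPM in mutants (SD, n = 5) and 6.84 ± 2.84 CPM in controls (SD, n = 4). Its log2 fold change, 2.17, had an SE of 0.32 (edgeR adjusted p = 0.00246), and 2.88% of all genes tested had a higher one. Smad3 was the member whose call was most stable. It passed in 21 of 23 alternative fits, all but those with the acinar or the ductal score, among them the fit with the endocrine score (log2 fold change 1.68, edgeR adjusted p = 0.0312).

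Lmo4 (chromosome 3, positions 144188530 to 144205220), whose LIM-domain protein bridges transcription complexes, had 41.4, 95.6, 84.5, 27.9 and 50.7 CPM in mutants 1 to 5. It had 12.987, 15.2, 24.0 and 19.8 CPM in controls 1 to 4. Mutants 2 and 3 were highest, while mutant 4 lay close to control 3. The estimate, 1.74 in log2 units, had an SE of 0.37 (edgeR adjusted p = 0.00863). Without mutants 2 and 3 it was 1.10 (edgeR adjusted p = 0.0238), and with the endocrine score it was 0.84 and did not pass (edgeR adjusted p = 0.172).

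Maf (chromosome 8, positions 115682942 to 115707794), a large basic leucine zipper factor expressed in alpha cells, was too low to test. It had 2, 0, 6, 1 and 0 counts in mutants 1 to 5 and 0, 1, 2 and 4 counts in controls 1 to 4. Both groups held libraries at 0, and a difference between them was not detectable at this depth.

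Zfp36l1 (chromosome 12, positions 80107754 to 80113013), which encodes a zinc-finger protein that promotes decay of mRNAs with AU-rich elements, had 64.9, 127, 121, 55.0 and 77.3 CPM in mutants 1 to 5. It had 17.8, 26.8, 35.4 and 39.8 CPM in controls 1 to 4. As for Lmo4, the highest values were those of mutants 2 and 3. In log2 units the fold change was 1.57 (SE 0.32, edgeR adjusted p = 0.00744), 1.08 without mutants 2 and 3 (edgeR adjusted p = 0.0244) and 0.90 with the endocrine score, where it did not pass (edgeR adjusted p = 0.146). An antisense transcript, Gm26669, overlaps the gene, and since counting by strand is not stated, its reads cannot be told apart.

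Of the 3 metabolic and protein-modifying enzymes, 2 rose. Acot7 (chromosome 4, positions 152178134 to 152271855), a thioesterase that splits long-chain acyl-CoA into fatty acid and coenzyme A, had 55.1, 64.7, 60.5, 126 and 80.8 CPM in mutants 1 to 5. It had 12.3, 11.6, 26.5 and 25.9 CPM in controls 1 to 4. Here mutant 4 was highest, and mutants 2 and 3, the libraries with the least hormone RNA, were not set apart. Fitted over the 9 libraries, its log2 fold change and SE were 2.02 and 0.35 (edgeR adjusted p = 0.00415). It was 2.12 without mutants 2 and 3 (edgeR adjusted p = 0.00831) and 2.19 with the endocrine score (edgeR adjusted p = 0.0290).

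Oat (chromosome 7, positions 132557478 to 132576398), the mitochondrial ornithine aminotransferase, changed least among the members that passed. It had 44.0, 40.2, 40.2, 30.1 and 31.6 CPM in mutants 1 to 5 and 21.6, 15.2, 29.9 and 26.9 CPM in controls 1 to 4. Mutant 4 and control 3 were nearly level. Its log2 fold change, 0.67, had an SE of 0.21 (edgeR adjusted p = 0.0369), and 21.9% of all genes tested had a higher one. Leaving out any one of controls 1, 2 and 4 or of mutants 1 to 4 ended the call, with an edgeR adjusted p of up to 0.118, and so did RLE scaling (edgeR adjusted p = 0.0682) and DESeq2 (adjusted p = 0.0532).

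Tgm2 (chromosome 2, positions 158116402 to 158146436), a transglutaminase that cross-links proteins, had 23.4, 25.5, 21.5, 16.2 and 18.5 CPM in mutants 1 to 5. It had 4.92, 4.24, 18.7 and 31.7 CPM in controls 1 to 4. The mutants were close to each other, whereas controls 1 and 2 were low, control 3 lay within the range of the mutants and control 4 above it. The estimate, 0.49 in log2 units, had an SE of 0.53 (edgeR adjusted p = 0.491). Without controls 3 and 4, left out after the values were seen, it was 2.19 (edgeR adjusted p = 0.00617), and without controls 1 and 2 it was -0.33 (edgeR adjusted p = 0.418). Reads of Rprd1b, which overlaps Tgm2 on the other strand, cannot be told apart.

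The order of controls seen in Tgm2 was shared by the members that rose. In all 6 of them controls 3 and 4 both lay above controls 1 and 2, as in 22.9% of all genes tested and in 5 of the 11 other disallowed genes that rose. The ductal marker score, a mean log2 CPM, was 7.80 and 7.56 in controls 3 and 4 and 6.41 and 6.40 in controls 1 and 2, against 7.81, 7.99, 8.13, 8.29 and 8.08 in mutants 1 to 5. Acinar scores did not divide the controls in this way, at 8.37 and 7.90 in controls 3 and 4 and 8.002 and 8.20 in controls 1 and 2. The split was not particular to ductal markers. Endothelial scores were 3.585 and 3.968 in controls 3 and 4 and 2.685 and 2.394 in controls 1 and 2. Mesothelial scores, from a list that shares Krt19 with the ductal list, were also higher in controls 3 and 4. Stellate cell scores were higher there too, but nearly level in control 3 (2.43) and control 1 (2.40). Beta cell, alpha cell and endocrine secretion scores were lower in controls 3 and 4. Without controls 1 and 2, 1 member passed, Smad3 (log2 fold change 1.67, edgeR adjusted p = 0.0367), where 2.64% of all genes tested were higher. With the ductal score as a covariate edgeR called 0 members, with 4 higher and 0 lower at an unadjusted p under 0.05, and 11 of 12402 genes. Group explained 56.6% of the variance of the ductal score, so the genotype and that score overlapped in part.

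**Figure D2:**
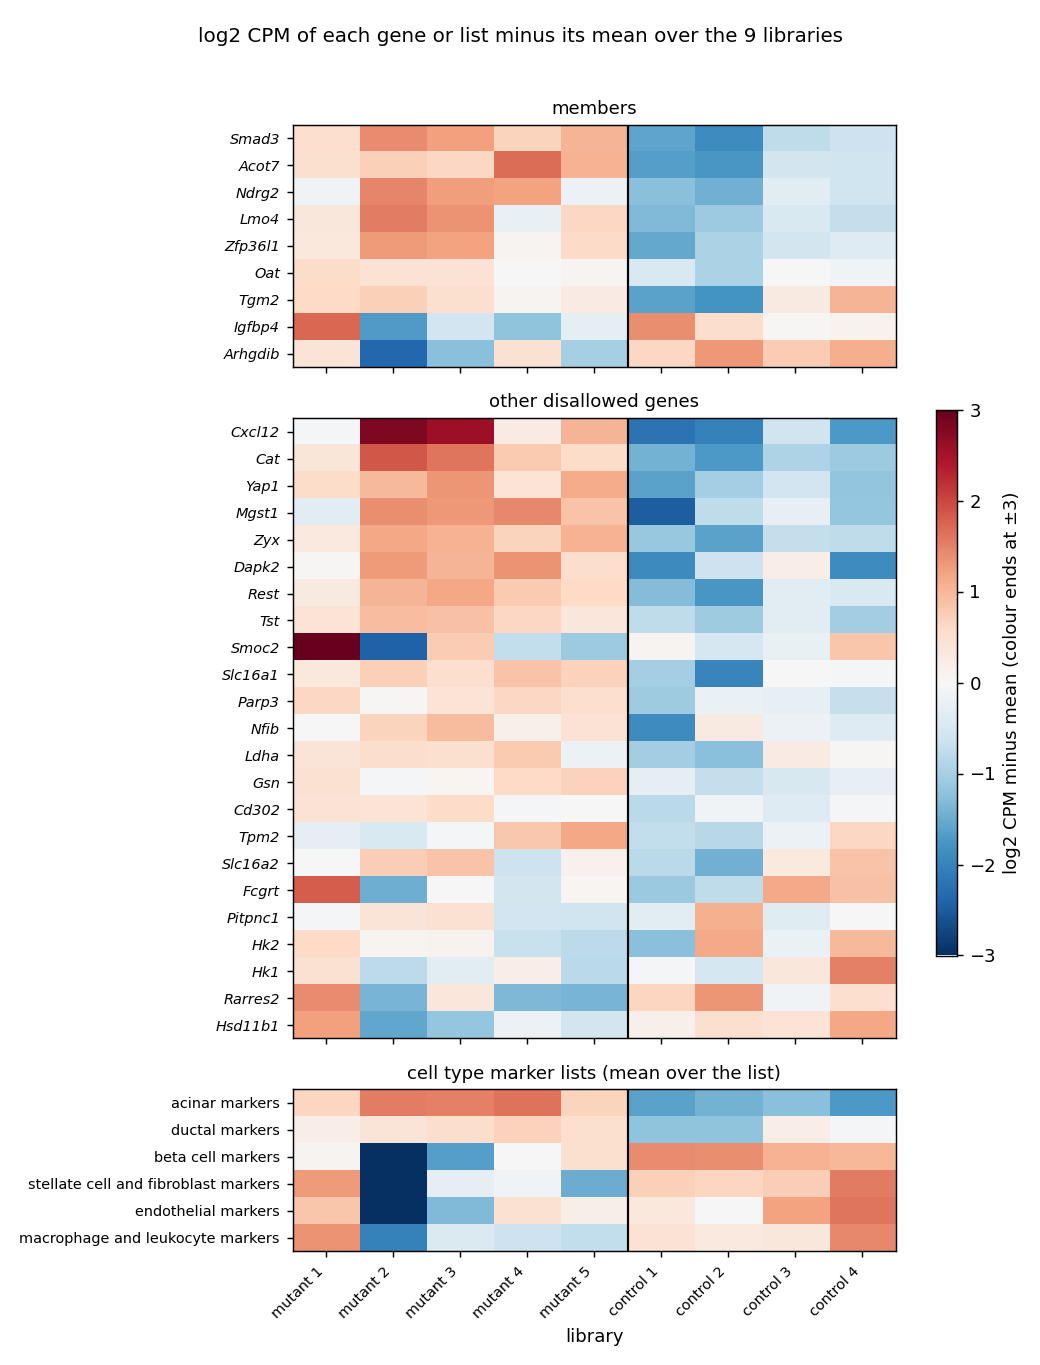
Log2 CPM of the 9 tested members, the 23 tested other disallowed genes and the mean of 6 marker lists (rows), each minus its own mean over the 9 libraries (columns, mutants left of the line and controls right of it). The 6 members that rose are red in most mutants and blue or pale in the controls, most deeply blue in controls 1 and 2.

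The remaining members encode secreted and cytoplasmic regulators. Ndrg2 (chromosome 14, positions 51905271 to 51914158), a member of the N-myc downstream regulated family, had 15.1, 45.7, 39.4, 37.9 and 14.4 CPM in mutants 1 to 5. It had 6.70, 5.85, 13.1 and 10.7 CPM in controls 1 to 4. Mutants 1 and 5 lay just above control 3, and the other 3 mutants well above it. In log2 units the fold change was 1.74 (SE 0.42, edgeR adjusted p = 0.0135). The call ended without mutants 2 and 3 (log2 fold change 1.23, edgeR adjusted p = 0.0605) and with the endocrine score (0.97, edgeR adjusted p = 0.246).

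Arhgdib (chromosome 6, positions 136923655 to 136941899), an inhibitor of small GTPases that is abundant in blood cells, had lower values in mutants, short of the threshold. It had 10.7, 1.35, 3.19, 11.1 and 3.88 CPM in mutants 1 to 5 and 12.6, 20.2, 13.7 and 17.3 CPM in controls 1 to 4. Every mutant lay below every control, with mutants 1 and 4 close to control 1. Fitted over the 9 libraries, its log2 fold change and SE were -1.40 and 0.52, which did not pass (edgeR adjusted p = 0.0625). It passed without mutant 1, 2 or 4, with log2 fold changes of -1.71, -1.20 and -1.77 (edgeR adjusted p = 0.0334, 0.0496 and 0.0356). It also passed with RLE scaling (edgeR adjusted p = 0.0483), in DESeq2 (adjusted p = 0.0182) and in limma-voom (adjusted p = 0.00952). With the endocrine score the estimate was -0.11 (edgeR adjusted p = 0.910), and without mutants 2 and 3 it was -0.95 (edgeR adjusted p = 0.0867). Beside it, 0 of 10 tested macrophage and leukocyte markers passed in either direction. Of these markers, 8 had negative and 2 positive log2 fold changes, with a median of -0.77. Their summed level was 45.2 to 191 CPM in mutants and 111 to 213 CPM in controls, with no listed gene at 0 in all libraries. The part of leukocytes in the values of Arhgdib was not tested.

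Igfbp4 (chromosome 11, positions 99041244 to 99054392), a secreted binding protein of insulin-like growth factors, was near the limit of counting. It had 33, 1, 4, 2 and 6 counts in mutants 1 to 5 and 23, 11, 9 and 10 counts in controls 1 to 4. Mutant 1 was the highest of all libraries and the other mutants were below every control. Its log2 fold change, -0.53, had an SE of 0.82 (edgeR adjusted p = 0.637). The summed level of the stellate cell and fibroblast markers was also highest in mutant 1, at 136 CPM, against 2.83 to 34.1 CPM in the other mutants and 59.3 to 118 CPM in controls. Their score was highest in control 4, at 3.26, against 2.97 in mutant 1. Among the mutants, mutant 1 also had the highest summed endothelial and macrophage and leukocyte markers, at 90.9 and 191 CPM. The part of these cells in the values of Igfbp4 was not tested.

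The 9 tested members differed in how alike they were across libraries. The likeness used here is the root mean square difference of 2 genes' log2 CPM over the 9 libraries after each was centred on its mean, so that 0 means equal profiles, and it is a description with no test. Lmo4 and Zfp36l1 were the closest pair of members, at 0.20, followed by Smad3 and Zfp36l1 at 0.42. Outside the members, the genes closest to Smad3 were B4galnt1 and Fam83f, both at 0.13, with log2 fold changes of 1.97 and 2.29. Acot7 was closest to the lipid droplet gene Plin2 at 0.16 and to the keratin gene Krt8 at 0.19. The genes closest to Lmo4 were Itih2 at 0.18 and Ak7 at 0.20, and the one closest to Arhgdib was the exonuclease gene Isg20 at 0.19. Tgm2 was closest to Ptrf, a caveola gene now named Cavin1, at 0.25. Igfbp4 was closest to the fatty acid transporter gene Cd36, at 0.40.

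The relatives of the members moved in both directions. Of 53 tested genes in the same families or pathways 7 rose and 8 fell, which is 15 of 53 where 32.4% of all genes tested were called, and their median log2 fold change was 0.02. With the endocrine score Tgfbr2 and Acot9 still passed as higher, and the 8 that fell no longer passed (lowest edgeR adjusted p = 0.0663, Maff). Without mutants 2 and 3, Smad2, Cdc42 and Arhgdig did not pass (edgeR adjusted p = 0.259, 0.0849 and 0.0846). Of the 5 other SMAD genes tested 1 passed, Smad2, the other receptor-regulated SMAD of this pathway, at a log2 fold change of 0.45 (edgeR adjusted p = 0.0427). That call was lost with RLE scaling (edgeR adjusted p = 0.0958) and in 8 of 9 fits without 1 library, all but the one without mutant 4 (highest edgeR adjusted p = 0.138). Smad1, Smad4, Smad5 and Smad7 did not pass, at 0.02, 0.16, 0.05 and -0.58. The ratio of Smad3 to Smad2 counts within a library, which does not depend on scaling (pairs chosen after their values were seen), was 0.523 to 0.864 in mutants and 0.123 to 0.380 in controls.

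Other genes of TGF-β signalling changed in both directions. The type II receptor gene Tgfbr2 had 16.1, 17.7, 17.4, 24.6 and 17.4 CPM in mutants 1 to 5 and 4.65, 2.78, 7.38 and 7.60 CPM in controls 1 to 4. All mutants lay above all controls, and it rose by a log2 fold change of 1.73 (edgeR adjusted p = 0.00405), also with the endocrine score (1.75, edgeR adjusted p = 0.0367). The type III receptor gene Tgfbr3 had a log2 fold change of -1.61 that did not pass (edgeR adjusted p = 0.0579). Skil, which TGF-β is known to induce, fell, with a log2 fold change of -1.58 (edgeR adjusted p = 0.0336). Control 2 was far above the other libraries in Skil, at 838 CPM, against 80.7 to 199 CPM in mutants and 179 to 238 CPM in the other controls, and Skil no longer passed without it, without mutant 4 or without mutant 5 (highest edgeR adjusted p = 0.0695).

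The NDRG family held genes of both directions. Ndrg3 and Ndrg4 fell, with log2 fold changes of -1.24 and -1.88 (edgeR adjusted p = 0.0226 and 0.0244), and Ndrg1 had -0.10. Ndrg3 had 61.8, 15.9, 27.8, 54.6 and 50.2 CPM in mutants 1 to 5 and 120, 92.8, 95.3 and 90.5 CPM in controls 1 to 4. Every mutant was below every control. The ratio of Ndrg2 to Ndrg3 counts was 0.245 to 2.87 in mutants and 0.0559 to 0.138 in controls. The ratio of Ndrg2 to Ndrg1 counts overlapped between the groups, at 0.0881 to 0.388 in mutants and 0.0480 to 0.0961 in controls. Ndrg3 was lost without control 1 (edgeR adjusted p = 0.0639), and Ndrg4 without control 1, control 4 or mutant 3 (highest edgeR adjusted p = 0.0626).

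Among the LIM-only genes, Lmo1 had 24.3, 1.21, 4.85, 6.29 and 10.2 CPM in mutants 1 to 5 and 40.3, 35.9, 31.2 and 39.7 CPM in controls 1 to 4. It fell by 1.96 on the log2 scale (edgeR adjusted p = 0.0328), a call lost in 7 of the 9 fits without 1 library, all but those without mutant 1 or mutant 2 (highest edgeR adjusted p = 0.0752). The shared binding partner Ldb1 had a log2 fold change of 0.08. Counts of Lmo4 were 1.70 to 78.8 times those of Lmo1 in mutants and 0.322 to 0.771 times in controls. The paralogs of Zfp36l1, Zfp36 and Zfp36l2, did not pass, at -0.42 and 0.07, and counts of Zfp36l1 were 5.20 to 17.5 times those of Zfp36l2 in mutants and 1.97 to 4.79 times in controls.

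**Figure D3:**
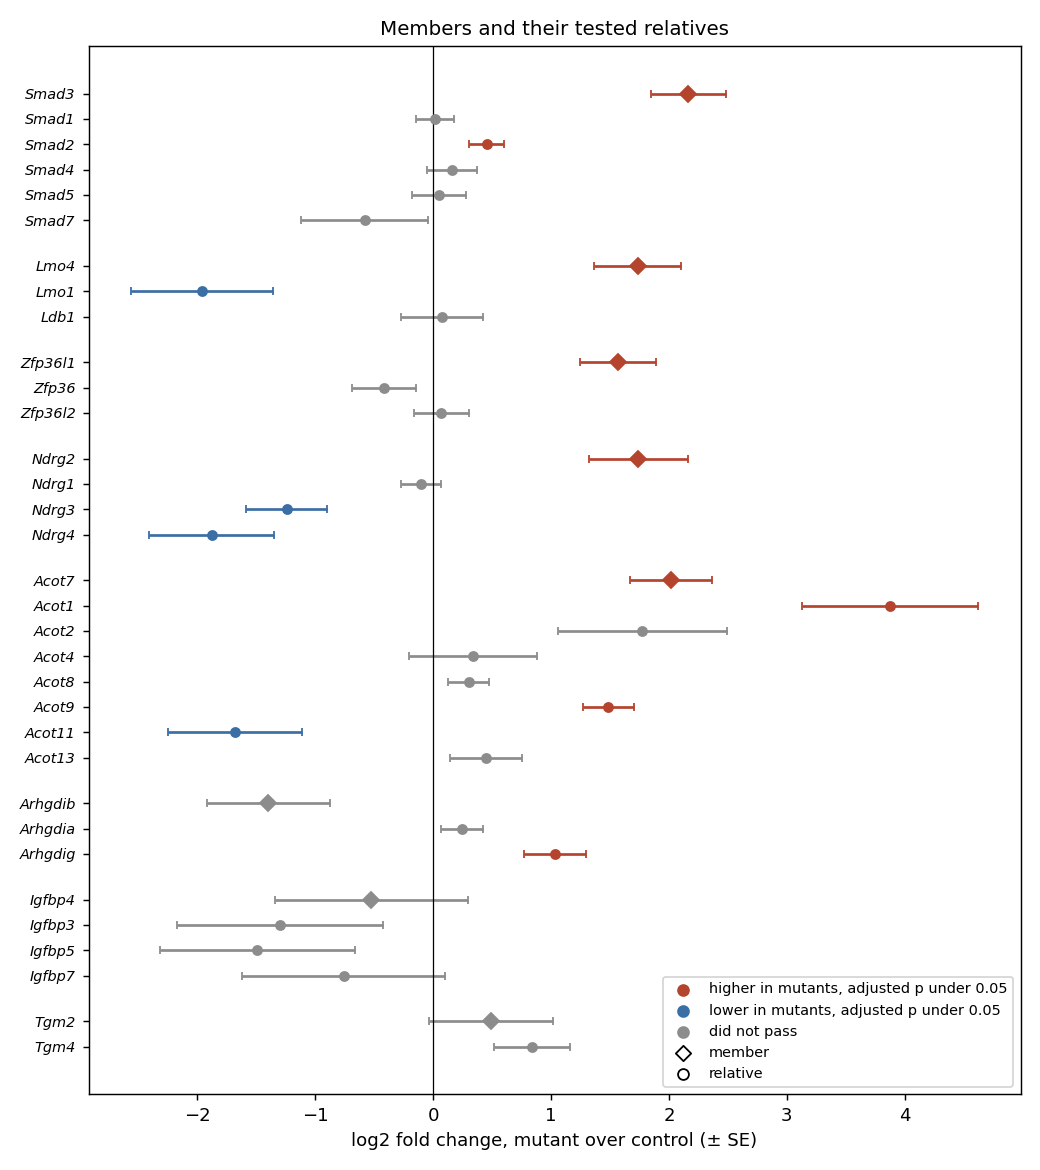
Log2 fold change of mutant over control with its standard error for 8 members (diamonds) and their tested family relatives (circles), red where higher in mutants past an edgeR adjusted p of 0.05, blue where lower and grey otherwise. Lmo4 and Ndrg2 lie right of 0 while Lmo1, Ndrg3 and Ndrg4 lie left of it.

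Among acyl-CoA thioesterases, Acot1 and Acot9 rose with Acot7, with log2 fold changes of 3.87 and 1.49 (edgeR adjusted p = 0.00609 and 0.00244), and Acot11 fell by 1.68 (edgeR adjusted p = 0.0459). Acot9, a mitochondrial enzyme, had 49.0, 63.8, 61.1, 74.5 and 68.0 CPM in mutants 1 to 5 and 15.2, 21.5, 31.3 and 22.4 CPM in controls 1 to 4, and it passed with the endocrine score (edgeR adjusted p = 0.0280). Acot1 and Acot2 are close paralogs whose reads may be shared, so both are uncertain. Acot11 was lost without any one of controls 1 to 4, mutant 1 or mutant 3 (highest edgeR adjusted p = 0.110). Counts of Acot7 were 2.37 to 20.9 times those of Acot11 in mutants and 0.196 to 0.663 times in controls. Beside Acot13, which did not pass, they were 0.518 to 1.70 times in mutants and 0.118 to 0.606 times in controls, so the groups overlapped.

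Around Oat, the proline dehydrogenase gene Prodh rose by a log2 fold change of 2.43 (edgeR adjusted p = 0.00561) and passed in all 9 fits without 1 library (highest edgeR adjusted p = 0.0212). Arg2 and Odc1, which make and use ornithine, did not pass, at 1.42 and -1.27 (edgeR adjusted p = 0.0910 and 0.0608). Of the relatives of Arhgdib, Arhgdig rose by 1.04 and the small GTPase gene Cdc42 by 0.48 (edgeR adjusted p = 0.0164 and 0.0303), while Arhgdia had 0.24 (edgeR adjusted p = 0.308). Arhgdig was lost without control 1 or mutant 3 (highest edgeR adjusted p = 0.0521), and Cdc42 without any one of 7 libraries, that is all but control 2 and mutant 1 (highest edgeR adjusted p = 0.0954).

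Maf has a small relative, Maff, which fell. It had 11.7, 9.97, 10.6, 6.58 and 8.16 CPM in mutants 1 to 5 and 23.1, 17.6, 17.0 and 31.9 CPM in controls 1 to 4, a log2 fold change of -1.25 (edgeR adjusted p = 0.00630). The 4 tested relatives of Igfbp4, Igfbp3, Igfbp5, Igfbp7 and the protease gene Pappa2, did not pass, with log2 fold changes between -1.91 and -0.76 (lowest edgeR adjusted p = 0.0596, Pappa2). The 1 tested relative of Tgm2, Tgm4, had 0.84 (edgeR adjusted p = 0.0688).

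A wider set of 28 other genes that have been described as repressed in beta cells, also chosen with earlier results known, was examined beside the members. All 28 were found and 23 tested, of which 11 rose and 0 fell (edgeR adjusted p under 0.05), where 20.6% and 11.8% of all genes tested did so. At an unadjusted p under 0.05 edgeR had 0 lower ones, and DESeq2 and limma-voom called 0. In 9 of the 23 every mutant lay above every control, beside 18.5% of all genes tested, and their median log2 fold change was 0.85. With the endocrine score 5 of them passed as higher, beside 4.18% of all genes tested.

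Repression of the classical pair of this set limits lactate and pyruvate exchange. Slc16a1, the monocarboxylate transporter, had 19.0, 25.3, 21.996, 27.9 and 24.9 CPM in mutants 1 to 5 and 7.38, 3.66, 15.2 and 14.6 CPM in controls 1 to 4. All mutants lay above all controls, and it rose by a log2 fold change of 1.21 (edgeR adjusted p = 0.0308), a call lost without control 1 or any one of mutants 2 to 5 (highest edgeR adjusted p = 0.0872). Ldha, lactate dehydrogenase A, had 637, 700, 675, 841 and 430 CPM in mutants 1 to 5 and 236, 202, 575 and 499 CPM in controls 1 to 4. Its groups overlapped, and its log2 fold change of 0.80 did not pass (edgeR adjusted p = 0.0911). The low-Km hexokinase gene Hk1 had -0.72 (edgeR adjusted p = 0.224).

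Regulators were also among the genes that rose. Rest, a repressor of neuronal and endocrine genes that is normally silent in beta cells, had 16.2, 27.6, 30.3, 23.4 and 20.6 CPM in mutants 1 to 5 and 5.33, 3.80, 10.8 and 9.72 CPM in controls 1 to 4. It rose by a log2 fold change of 1.67 (edgeR adjusted p = 0.00641) and did not pass with the endocrine score (edgeR adjusted p = 0.0972). Yap1, the Hippo pathway coactivator, had a log2 fold change of 2.06, and Zyx, a focal adhesion protein gene, 1.89 (edgeR adjusted p = 0.00252 and 0.00180). Both passed with the endocrine score (edgeR adjusted p = 0.0330 and 0.0213).

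The genes that rose included antioxidant and detoxifying enzymes. Catalase (Cat) had 131, 371, 311, 177 and 149 CPM in mutants 1 to 5 and 38.1, 30.7, 54.0 and 48.1 CPM in controls 1 to 4, a log2 fold change of 2.41 (edgeR adjusted p = 0.00250). Mgst1, a microsomal glutathione transferase, had a log2 fold change of 2.02, Tst, a mitochondrial sulfurtransferase, 1.48 and Parp3, a poly-ADP-ribose polymerase family gene, 0.98 (edgeR adjusted p = 0.0119, 0.00398 and 0.0117), and the groups overlapped in Mgst1. The chemokine gene Cxcl12 had 24.6, 181, 154, 30.9 and 52.2 CPM in mutants 1 to 5 and 5.33, 6.15, 17.1 and 7.60 CPM in controls 1 to 4. Mutants 2 and 3 again stood above the others, and its log2 fold change was 3.29 with them (edgeR adjusted p = 0.00895) and 1.92 without them (edgeR adjusted p = 0.0157). With the endocrine score Cxcl12 was at 1.35 and did not pass (edgeR adjusted p = 0.189), nor did Mgst1 and Tst (edgeR adjusted p = 0.160 and 0.0636), while Cat and Parp3 passed (edgeR adjusted p = 0.0204 and 0.0371).

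Of 10 genes that encode the machinery known to repress disallowed genes, 1 changed by edgeR, where 32.4% of all genes tested were called. Dnmt3a, the de novo DNA methyltransferase that silences such genes in maturing beta cells of mice, had 38.1, 19.1, 21.7, 29.3 and 40.9 CPM in mutants 1 to 5. It had 62.3, 145, 46.0 and 51.4 CPM in controls 1 to 4. Every mutant was below every control, with control 2 far above the others, and the estimate was -1.35 in log2 units, SE 0.37 (edgeR adjusted p = 0.0217). Without control 2 it was -0.93 (edgeR adjusted p = 0.0333). It did not pass without mutants 2 and 3 (-1.11, edgeR adjusted p = 0.0647), without controls 1 and 2 (-0.77, edgeR adjusted p = 0.137) or with the endocrine score (-0.79, edgeR adjusted p = 0.334). The maintenance methyltransferase gene Dnmt1 had -0.33, the Polycomb genes Ezh2, Eed and Suz12 had 1.15, 0.49 and -0.22, and the microRNA processing genes Dicer1, Dgcr8 and Drosha had -0.04, 0.22 and 0.01, which did not pass (lowest edgeR adjusted p = 0.0654, Ezh2). Ezh2 passed as higher in DESeq2 (adjusted p = 0.0438) and limma-voom (adjusted p = 0.00809), and Eed in limma-voom (adjusted p = 0.0285).

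**Figure D4:**
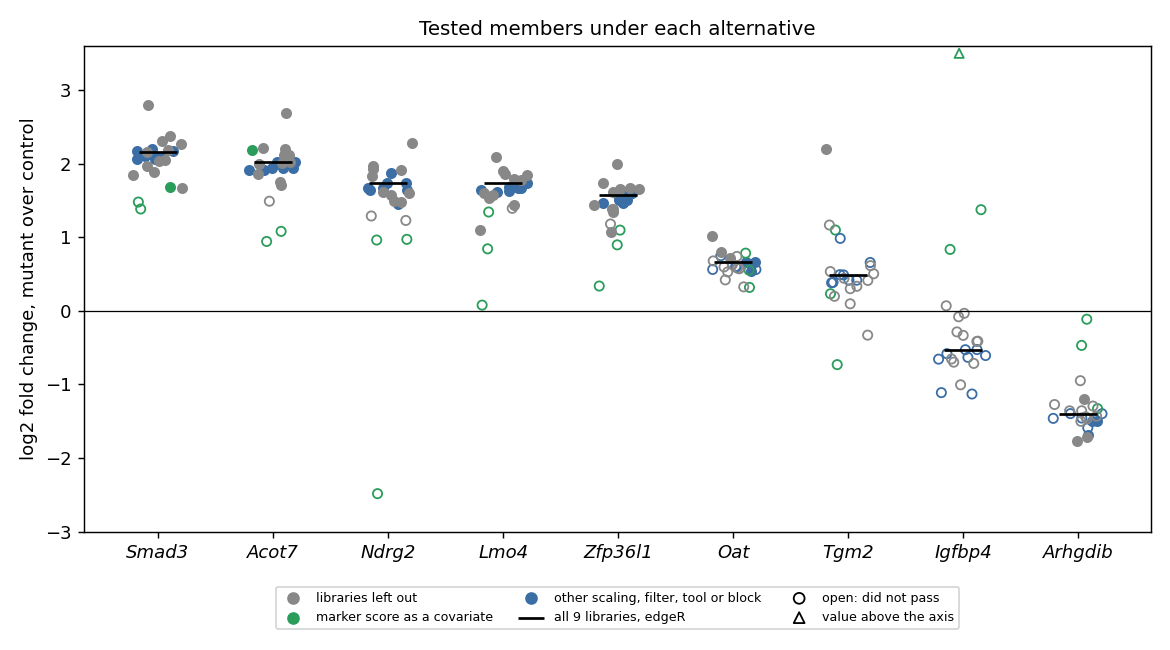
Log2 fold change of mutant over control of each tested member under every alternative, with the fit on all 9 libraries as a black bar, filled points past an adjusted p of 0.05 and open points not past it. Smad3, Acot7, Lmo4, Zfp36l1 and Oat stay above 0 and Arhgdib below 0 in all 23 alternatives, Ndrg2 falls below 0 with the acinar score, and Tgm2 and Igfbp4 lie on both sides of 0.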

How the data were processed

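The authors deposited raw counts, 1 whole number for each gene symbol and library. Per the submitters' processing notes, the project used, among other tools, STAR, HOMER, RSEM, DESeq2, R 4.1.0 and the mouse build mm10, without roles. The tool behind the counts, and its strand setting, are not given in these sources. Groups and replicate numbers come from the sample titles. No 2 libraries of a group agreed within sampling noise.

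Mutant was compared with control by edgeR 4.0.16 (R 4.3.3) after filterByExpr and TMM scaling, with a quasi-likelihood test on 12402 genes, two-sided, Benjamini-Hochberg adjusted at 0.05. Standard errors are the unshrunken estimate over the square root of F. TMM scaling entered CPM too; log2 CPM had a prior count of 2. Alternatives were other scaling and filters (CPM of at least 1 in 4 libraries), DESeq2 1.42.0, limma-voom (limma 3.58.1), marker scores as covariates, a replicate block and libraries left out. The procedure was also run on simulated data with few changed genes, as many raised as lowered. That run does not cover shifts as wide as those here.

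Members and lists were chosen with earlier results of these data known. Named were the members, the listed relatives and repressors, up to 8 other disallowed genes by lowest p with Ldha, Slc16a1, Hk1, Rest and Pdgfra, and the 2 nearest profiles per member, of which part is given. Coordinates are from GENCODE M21 (GRCm38), promoters from RefSeq (GRCm38.p6). A symbol missing from the count table was matched by synonym (2 symbols). Some of the listed relatives are not reported here.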

Additional observations from a re-analysis of the deposited data

Results flagged for a closer look

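Of 20 groups of member values examined, 2 held a library far from the rest of its group. By chance about 1 in 20 is flagged for normally distributed values. That rate need not hold at the low counts of these 2 groups. Igfbp4 had 4 CPM in mutant 1, and the next mutant had 0.803 CPM. Maf had 0.910 CPM in mutant 3, from 6 counts, and the next mutant had 0.242 CPM.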

How the results depend on the processing

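The count of 6 higher members became 0 with the acinar or the ductal score, 2 with the endocrine score and 1 without controls 1 and 2. That of lower members, 0, became 1 with RLE scaling, DESeq2 or limma-voom. For the other disallowed genes 11 higher became 0 with the acinar or the ductal score, 5 with the endocrine score and 2 without controls 1 and 2. The 4022 genes called in all became 0 with the acinar, 11 with the ductal and 590 with the endocrine score, 2432 with the replicate block, 493 without controls 1 and 2, 2494 without controls 3 and 4 and 2584 without mutants 2 and 3. Leaving out each library gave 5 to 6 higher and 0 to 1 lower members, 9 to 12 higher and 0 to 1 lower other disallowed genes, and 2377 to 4567 calls in all, fewest without control 1 (2377) and without mutant 3 (2479). Reversed signs, none past the threshold, were those of Igfbp4 (6.92 with the acinar, 0.84 with the ductal, 1.38 with the endocrine score, 0.0694 without controls 1 and 2), Ndrg2 (-2.48 with the acinar score), Tgm2 (-0.73 with the ductal score, -0.33 without controls 1 and 2) and Dnmt3a (0.33 with the acinar score). The cause was not tested.

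Log2 fold changes are given as fitted. RLE scaling shifted the median log2 fold change of all genes by -0.10, and 51.8% of its calls were higher in mutants, against 63.6% with TMM and 49.6% in DESeq2. Same-numbered libraries did not deviate together (correlations of deviations from the group means 0.05, -0.02, 0.18 and -0.05 for numbers 1 to 4). With the replicate block 5 members were higher (all but Oat) and 9 other disallowed genes, and Dnmt3a did not pass (edgeR adjusted p = 0.0664). Counts limit Maf and Igfbp4 most, and without mutant 1 Igfbp4 was too low to test. The fits without controls 1 and 2 and without controls 3 and 4 were chosen after seeing the data.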

Other observations

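Values of 3 of the other disallowed genes are added here. Pdgfra, a receptor gene of mesenchymal cells, had 469, 1, 62, 2 and 4 counts in mutants 1 to 5 and 1, 0, 5 and 66 counts in controls 1 to 4, and was not tested. Mutant 1 alone held most of its counts. Smoc2, a matrix protein gene, did not pass, at 1.40 in log2 units (SE 1.19). Itih5, a gene of the hyaluronan-binding inhibitor family, was also too low to test. It had 2.06, 1.35, 1.06, 1.02 and 0.401 CPM in mutants 1 to 5 and 0.137, 0, 0.234 and 0.112 CPM in controls 1 to 4, so that every mutant lay above every control. Pdgfra was named by the rule for named genes, and Smoc2 and Itih5 were chosen after their values were seen.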
